A study of Homo sapiens with 14 samples.

Results

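The nuclei described here were those of a human gastruloid preparation that carried SOX2 RNA without TBXT RNA, proposed to be neural-like. They were chosen by counts of unique molecular identifiers (UMIs), each of which stands for 1 captured RNA molecule. A member nucleus held 2 or more UMIs of SOX2 and 0 UMIs each of TBXT, SHH, TBX6 and MSGN1. Of 3422 nuclei that held at least 1000 UMIs and at most 25% mitochondrial UMIs, 201 were members (5.87%, exact binomial 95% interval 5.11 to 6.71). All intervals given here cover counting error only.

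The gastruloids were grown from H9, an established line of human embryonic stem cells (hESC). Cells were exposed to the GSK-3 inhibitor CHIR-99021 at 3 μM for 24 h and seeded at 800 cells per well. For the first 18 h as aggregates they had the same inhibitor at 3 μM together with Rock inhibitor at 10 μM, and nuclei were taken from elongated gastruloids at 72 h. All nuclei came from 1 preparation and share 1 RNA library, so no difference between groups of nuclei was tested, and the spread between preparations is unknown. Bulk RNA-seq libraries of H9 hESC (2), of definitive endoderm that expressed dCAS9-KRAB without a guide (3) and of foregut controls (2) were used for context; the foregut libraries are named here by their titles, from which another label of theirs departs.

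SOX2 is a transcription factor of the pluripotent epiblast and of the neural plate. In the caudal epiblast it is found together with TBXT (Brachyury) in neuromesodermal cells, which are known to give rise to spinal cord and to paraxial mesoderm. TBX6 and MSGN1 are transcription factors of presomitic mesoderm, and SHH is a ligand of the node and notochord. HOX genes are known to be switched on in the order of their paralog number as the trunk extends, and HOXC8 belongs to the trunk genes. RMST is a long non-coding RNA known from neural progenitors, where it associates with SOX2 protein.

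The promoter of SOX2 is shown because the rule selected on this gene, those of RMST because it was a proposed marker, and one of RFX4, a neural transcription factor, because only 1 of its promoters lay under a peak. Each sequence runs from 250 bases before to 50 bases after a RefSeq start site, on GRCh38.p14, plus strand. Capitals mark CTTTGA or its reverse complement TCAAAG, the core recognised by TCF and LEF factors, which either strand of 12.9% of all 35116 promoters in the table held. The SOX core AACAAT (10.1% of promoters) and the CDX and HOX core TTTATG (10.6%) were searched on both strands too, and neither stood in these windows. A match describes the letters and does not show that a factor binds.
SOX2, chr3:181711675-181711974: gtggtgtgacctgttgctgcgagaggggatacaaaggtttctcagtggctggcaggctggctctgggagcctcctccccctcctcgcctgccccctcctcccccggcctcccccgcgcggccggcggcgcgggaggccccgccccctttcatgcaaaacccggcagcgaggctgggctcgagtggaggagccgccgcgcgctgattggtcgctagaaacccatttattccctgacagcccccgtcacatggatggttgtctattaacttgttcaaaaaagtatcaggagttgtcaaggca
RMST, first start, chr12:97464441-97464740: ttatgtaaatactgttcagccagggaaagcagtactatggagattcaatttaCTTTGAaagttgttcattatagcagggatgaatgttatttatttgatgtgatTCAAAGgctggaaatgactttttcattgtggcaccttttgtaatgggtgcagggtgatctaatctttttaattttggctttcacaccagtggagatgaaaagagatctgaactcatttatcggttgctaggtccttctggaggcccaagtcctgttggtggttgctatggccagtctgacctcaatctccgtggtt
RMST, second start, chr12:97464843-97465142: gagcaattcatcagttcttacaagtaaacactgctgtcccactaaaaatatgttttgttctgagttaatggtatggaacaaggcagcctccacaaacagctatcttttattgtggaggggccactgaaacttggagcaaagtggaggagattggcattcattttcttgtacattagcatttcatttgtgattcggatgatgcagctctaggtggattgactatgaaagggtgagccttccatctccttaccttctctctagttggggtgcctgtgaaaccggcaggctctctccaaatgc
RFX4, second start, chr12:106600898-106601197: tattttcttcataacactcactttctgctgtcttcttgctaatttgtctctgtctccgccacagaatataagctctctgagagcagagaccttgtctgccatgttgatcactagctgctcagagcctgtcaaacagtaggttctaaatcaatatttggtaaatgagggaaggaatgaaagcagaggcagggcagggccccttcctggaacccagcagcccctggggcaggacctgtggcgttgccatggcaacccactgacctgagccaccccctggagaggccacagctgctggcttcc

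Peaks of accessible chromatin had been called over all nuclei together, so they do not tell in which nuclei a promoter was open. A peak of 860 bases (chr3:181711324-181712183) covered all 300 bases of the SOX2 promoter. At RMST, a peak of 820 bases (chr12:97464768-97465587) covered the second start, and none overlapped the first start, which holds both matches to the TCF and LEF core. At RFX4, a peak of 887 bases (chr12:106600745-106601631) covered the second of 3 starts in the table and the other two had none. Over all promoters in the table, 58.4% overlapped a peak by 1 base or more. Of 118 genes that were 2-fold or more higher in member nuclei, 82 had a promoter in the table and 72 of these (87.8%) had a peak over at least 1 promoter. Among genes past a limit of 10 UMIs per 1000000, 96.2% did. For HOXC8, which lies at chr12:54008985-54012769 on GRCh38.p14, 2 peaks overlapped the gene.

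Member nuclei held 2489 to 57740 UMIs (median 16818), and all other nuclei held 1018 to 107733 (median 16281). Mitochondrial UMIs made up a median of 15.2% in members and 15.7% in the others. Scrublet marked 7 of 201 members (3.48%, interval 1.41 to 7.04) and 96 of 3221 other nuclei (2.98%, interval 2.42 to 3.63) as doublets. Of the 538 nuclei with 2 or more UMIs of SOX2, 251 had no TBXT, 240 of these had no SHH, and 201 of those had neither TBX6 nor MSGN1. The nuclei with SOX2 and TBXT, which are the closest comparison, were 287 and deeper, with a median of 21920 UMIs. They were taken with no limit on SHH, TBX6 or MSGN1. A count of 0 depends on depth: with the same rule on counts thinned to 5000 UMIs per nucleus, 118 nuclei were members.

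SOX2 itself lay at the edge of the rule in many members. The lowest member held 2 UMIs of SOX2, the median 3 and the highest 13. There were 95 members with 2 UMIs, 29 with 3, 42 with 4 to 5 and 35 with 6 or more. Just outside the rule stood 231 nuclei with 1 UMI of SOX2 that met every other condition.

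The proposed markers were found in only part of the members. HOXC8 had a UMI in 108 of 201 members and RMST in 47. Both were detected in 26 members, 1 of them in 103, and neither in 72. RMST summed to 46.5 UMIs per 1000000 UMIs (CPM; exact Poisson 95% interval 39.7 to 54.1) in members and to 6.63 (interval 5.97 to 7.35) in all other nuclei. HOXC8 stood at 75.7 CPM (interval 67.0 to 85.1) in members and at 28.4 (interval 27.0 to 29.9) in the others. To compare shares at equal depth, nuclei with 5000 or more UMIs were thinned to 5000, which left out 5 members and 220 other nuclei. RMST then had a UMI in 13.8% of 196 members (interval 9.28 to 19.4), against 0.375% of 799 nuclei with TBX6 or MSGN1 and at most 1 UMI of SOX2, which should lack a neural RNA. HOXC8 had one in 27.6% of members (interval 21.4 to 34.4) and in 11.1% of those mesodermal nuclei. Before thinning, the median depth of the mesodermal nuclei was 18198 UMIs.

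Without the genes of the rule, the members did not lie together as 1 group. Nuclei were clustered on the 2000 most variable genes with SOX2, TBXT, SHH, TBX6 and MSGN1 left out. Of the 15 nearest neighbours of a member, a mean of 20.3% were members, with a range over members of 0 to 73.3%. Around other nuclei the mean was 4.87%, and 42 members had no member among their neighbours. Of 8 clusters, 1 with 388 nuclei held 110 of the 201 members (54.7%, interval 47.6 to 61.7). It also held 155 of the 287 nuclei with SOX2 and TBXT (54.0%, interval 48.1 to 59.9). Its leading genes were TNC, CHL1, LINC02751, TCERG1L, BTBD17, KANK4, PLD5, RMST, L1TD1 and BRINP3, and it is called the SOX2-rich cluster here, as its SOX2 level was 215 CPM against 24.2 in the rest. The other 91 members were spread over the remaining 7 clusters. There were 29 in a cluster with ERG and FST among its leading genes and 26 in one led by EDNRA and NFIB. The clusters were formed on the same counts, so levels that differ between them are a description.

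The number of SOX2 UMIs went with the cluster in which a member lay. Among members with 2 UMIs, 34 of 95 (35.8%, interval 26.2 to 46.3) were in the SOX2-rich cluster. With 3 UMIs it was 55.2% (interval 35.7 to 73.6), with 4 to 5 UMIs 61.9% (interval 45.6 to 76.4) and with 6 or more 34 of 35 (97.1%, interval 85.1 to 99.9). Just outside the rule, it held 10.8% (interval 7.13 to 15.6) of the nuclei with 1 UMI of SOX2. With 0 UMIs and the other conditions met, it held 2.70% of 1149 nuclei. Median depth went from 13039 UMIs in the last group to 20044 in members with 6 or more UMIs of SOX2, and its part in this order was not tested.

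**Figure D1:**
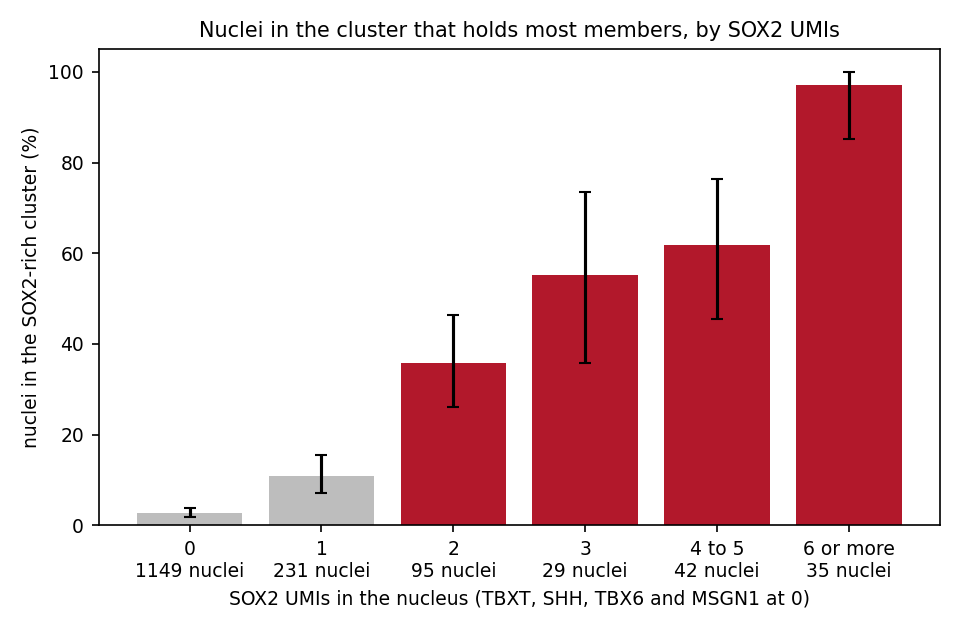
Share of nuclei in the SOX2-rich cluster (%) by the number of SOX2 UMIs, among nuclei without TBXT, SHH, TBX6 and MSGN1. Red bars are members, grey bars are nuclei outside the rule, and error bars are exact binomial 95% intervals; the share is 2.70% at 0 UMIs and 97.1% at 6 or more.

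Along the SOX2 classes, RMST, RFX4 and CHL1 were higher and MEOX1 and PAX3 lower in the highest class than in the lowest. RMST stood at 9.62 CPM just outside the rule (1 UMI of SOX2) and at 8.98 just inside it (2 UMIs), then at 29.0, 66.4 and 123 CPM with 3, 4 to 5 and 6 or more UMIs. Its intervals in the last 2 classes were 49.8 to 86.9 and 98.3 to 151, which do not cover the spread between nuclei. RFX4, a transcription factor of the neural tube, went from 15.6 CPM outside to 31.1 just inside and 178 in the highest class. CHL1, an adhesion protein of the L1 family, went from 12.7 to 61.0 and 166 CPM at the same 3 points. MEOX1, a somite transcription factor, stood at 220 CPM outside the rule, at 199 just inside it and at 27.9 in the highest class. PAX3, which is expressed in dorsal neural tube and in somites, stood at 451, 398 and 152 CPM at these points. RMST and MEOX1 were thus close on both sides of the limit of 2 UMIs. PAX3 was lower just inside it (interval 368 to 429) than outside (interval 430 to 473), and RFX4 and CHL1 were higher. Among the members, MEOX1 and PAX3 were highest in those with 2 UMIs of SOX2.

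**Figure D2:**
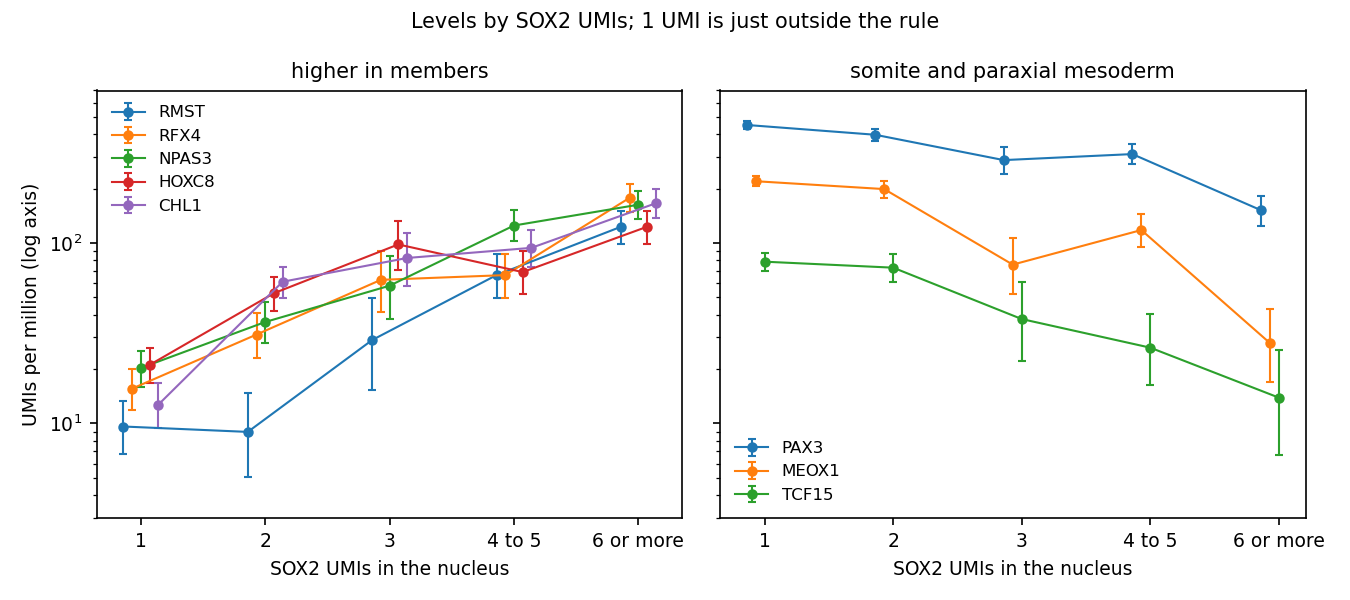
UMIs per 1000000 summed over nuclei (log axis) by SOX2 UMIs in the nucleus; the class with 1 UMI lies outside the rule. Points are sums over 231, 95, 29, 42 and 35 nuclei, bars are Poisson 95% intervals; RMST goes from 8.98 at 2 UMIs to 123 at 6 or more while MEOX1 goes from 199 to 27.9.

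Against all other nuclei, the genes furthest above included RMST, NPAS3 and RFX4, known from neural progenitors, and NKX1-2, known from the caudal epiblast. Of 10665 genes at 10 CPM or more in either group, 118 (1.11%) were 2-fold or more higher in members and 260 (2.44%) 2-fold or more lower. This fold limit stands in place of a test, and the ratios are on the scale of log2(CPM + 1). Genes are named from the 77 of the 118 that also had a UMI in 10% or more of the thinned members. Among these, the log2 ratio was largest for RMST (2.64), followed by SOX2 (2.48), which the rule had used. ILDR2, an immunoglobulin-like membrane protein, followed with a log2 ratio of 2.47. NPAS3, a transcription factor of neural progenitors, was at 83.6 and 16.9 CPM (2.24), and RFX4 had a log2 ratio of 2.19. The remaining genes of the 15 with the largest ratios were BTBD17, LINC01414, LIX1, TNC, CHL1, MAP2, CDH6, FGFBP3, NKX1-2 and GDF10, with ratios from 2.19 down to 1.77. MAP2 encodes a microtubule protein of neurons, TNC the matrix protein tenascin C, CDH6 a cadherin, and NKX1-2 a homeodomain factor of the caudal epiblast.

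Set against the nuclei that also carried TBXT, 3 of the 15 genes were past the 2-fold limit. Over all genes in that comparison, 0.765% were 2-fold or more higher in members. TNC, CHL1, CDH6, NKX1-2 and GDF10 had log2 ratios between -0.30 and 0.02, and the other genes ratios between 0.22 and 1.21. MAP2 stood at 112 CPM (interval 101 to 123) in members and at 73.9 (interval 67.7 to 80.4) in nuclei with SOX2 and TBXT. NKX1-2 stood at 25.6 CPM (interval 20.7 to 31.3) in members and at 25.7 in nuclei with SOX2 and TBXT. CDH6 was at 258 and 264 CPM, TNC at 39.9 and 42.3, and CHL1 at 91.6 and 113. ILDR2, LINC01414 and LIX1 were 2-fold or more above the nuclei with TBXT. LIX1 stood at 27.5 CPM (interval 22.4 to 33.5) in members against 11.3, and LINC01414, a long non-coding RNA, at 93.8 (interval 84.1 to 104) against 44.5. RMST stood at 46.5 against 29.2 CPM, and its log2 ratio to the nuclei with TBXT was 0.65.

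**Figure D3:**
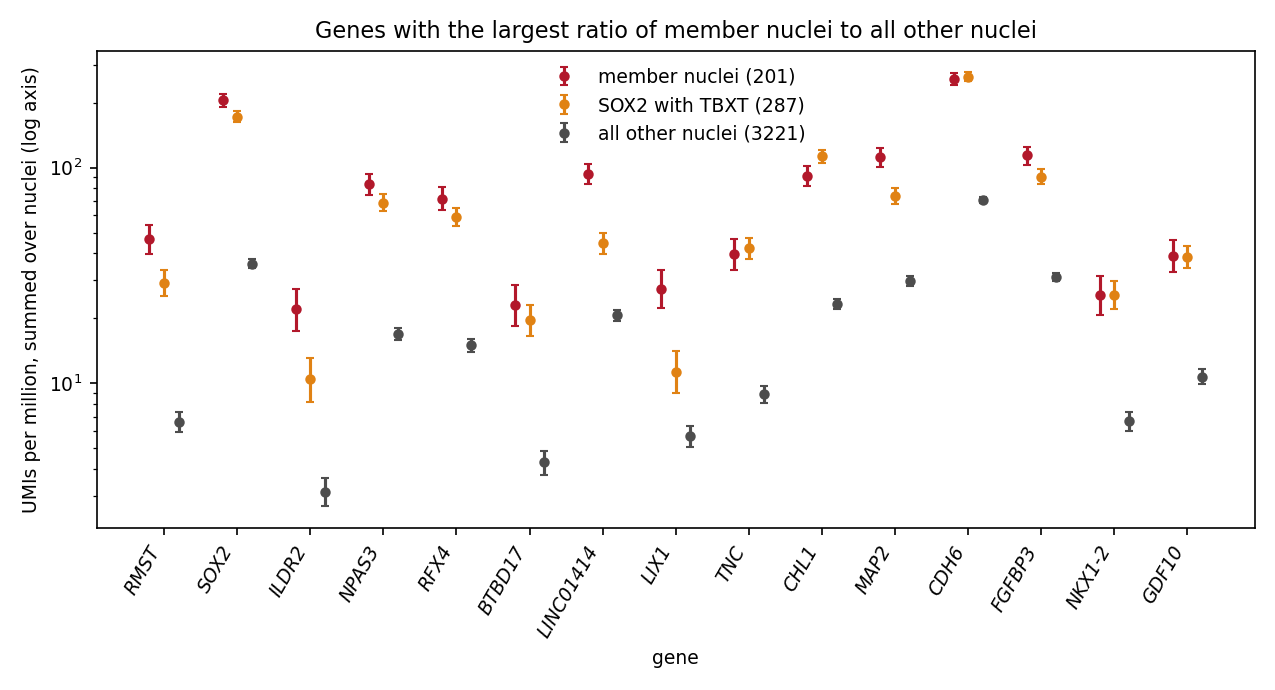
UMIs per 1000000 summed over nuclei (log axis) for the 15 genes with the largest ratio of members to all other nuclei, among genes with a UMI in at least 10% of thinned members. Bars are Poisson 95% intervals; in each gene the members lie above all other nuclei, while CDH6 is at 258 in members and 264 in nuclei with SOX2 and TBXT.

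The genes furthest below included genes of the node and of motile cilia, beside TBXT and TBX6, which the rule had used. PKD1L1, a polycystin of the embryonic node, had 12 UMIs in all members together (3.30 CPM, interval 1.71 to 5.77) against 159 CPM in the others. NOTO, a transcription factor of the node, was at 6.60 against 62.6 CPM, and DAND5, an antagonist of NODAL at the node, at 10.5 against 137. BICC1, an RNA-binding protein, was at 49.0 against 571 CPM. DNAH7, ARMC3 and SPAG1, which are genes of motile cilia, had log2 ratios of -2.38, -2.64 and -2.38. In nuclei under the members' median depth, DNAH7 was not past the fold (-0.76), and over all alternatives the ratios nearest to 0 were -1.05 for ARMC3 and -1.12 for SPAG1. Also among the lowest were SPP1, VWA2, ADAMTS15, SEMA3E and ENSG00000271945, with ratios between -3.96 and -2.30. Node and notochord nuclei carry TBXT or SHH, the absence of which chose the members.

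Set against the nuclei with SOX2 and TBXT, the members were higher in genes of paraxial mesoderm and lower in genes of the node. Those nuclei had 2 or more UMIs of SOX2 and 1 or more of TBXT, with no limit on SHH, TBX6 or MSGN1. Node nuclei, which carry TBXT or SHH, could lie among them, while the rule kept such nuclei out of the members. Of 10724 genes, 82 (0.765%) were 2-fold or more higher and 345 (3.22%) 2-fold or more lower in members. Of 14 somite genes past the filter, 12 were among the higher ones and none among the lower, with a median log2 ratio of 1.09. PKD1L1 stood at 3.30 CPM in members and 199 in nuclei with SOX2 and TBXT, and NOTO at 6.60 and 83.8. The 10 named genes with the largest ratios were RDH10-AS1, ENSG00000228566, MEIS1, RDH10, BOC, FST, EBF1, MXRA5, FLRT2 and PAPPA, with log2 ratios from 2.06 to 1.63. EBF1, a transcription factor known from somites, stood at 88.9 CPM in members and 26.5 in nuclei with TBXT. Within the members it stood at 28.6 CPM in the SOX2-rich cluster and at 152 outside it. FST, the activin antagonist follistatin, stood at 147 CPM in the SOX2-rich cluster and at 1151 in members elsewhere. For all 10 genes the members elsewhere were higher, by log2 ratios of 1.88 to 5.22. RDH10-AS1 and RDH10 may share reads where they overlap.

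Of 30 genes of neural plate and neural progenitors, 25 were in the table and 20 passed the level filter, of which 8 were 2-fold or more higher in members and none lower. These were SOX2, on which the rule had selected, and RMST, RFX4, LIX1, SOX3, FABP7, SP8 and PTPRZ1. Over all genes past the filter, 1.11% were higher and 2.44% lower. RMST, LIX1 and SOX3 reached 10 CPM only in members, so they could count as higher but not as lower. Against the nuclei with SOX2 and TBXT, 1 of 20 genes (LIX1) was 2-fold or more higher and none lower, with a median log2 ratio of 0.24. The shares over all genes in that comparison were 0.765% higher and 3.22% lower. SOX3, a close relative of SOX2, stood at 10.5 CPM against 3.43 in all other nuclei. FABP7, a fatty acid binding protein of radial glia, stood at 53.1 against 22.8, and PTPRZ1, a receptor phosphatase of neural progenitors, at 206 against 60.8. PAX7 and SOX21 had log2 ratios of 1.91 and 1.59 but lay under the filter, at 9.08 and 4.13 CPM. NES, CDH2, NCAM1 and CADM1 were not past the fold, with log2 ratios of -0.18, 0.17, -0.46 and -0.29. The median log2 ratio of the list without SOX2 was 0.51, beside 0.04 over all genes past the filter. SOX1, PAX6, OLIG3, NKX6-2 and DBX2 were not analysed here. Of 3 genes of neuronal differentiation past the filter, STMN2 and TUBB3 were not past the fold, and DLL3, which presomitic mesoderm also uses, was lower, at 74.8 against 230 CPM.

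Of 20 genes of caudal epiblast and neuromesodermal cells, 13 passed the filter. NKX1-2, FGF8 and FGF17 were 2-fold or more higher in members, and TBXT, used by the rule, and WNT3A were lower. NKX1-2 (25.6 against 6.69 CPM) reached 10 CPM only in members, so it could count as higher but not as lower. TBXT and WNT3A reached it only in the other nuclei, so they could count as lower but not as higher. The shares over all genes were 1.11% higher and 2.44% lower. FGF8 and FGF17 are FGF ligands of the tail bud. FGF8 stood at 125 CPM in members against 50.9, and in nuclei with SOX2 and TBXT at 158. FGF17 stood at 215, 95.9 and 350 CPM in the same order. WNT3A, a WNT ligand of the tail bud, stood at 8.53, 22.9 and 39.5 CPM. CYP26A1, which degrades retinoic acid, stood at 2.75, 3.29 and 12.3 CPM. Without TBXT, the list had a median log2 ratio of 0.28 to all other nuclei and of -0.54 to nuclei with SOX2 and TBXT.

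Markers of other cell types were mostly lower in members or not past the fold, where 2.44% of all genes past the filter were lower. Of 8 axial mesoderm genes past the filter 6 were lower, and of 11 presomitic mesoderm genes 10, in each case with 2 genes that the rule had used; without these the median log2 ratios were -2.23 and -1.46. Some of the lower genes, NOTO among them, reached 10 CPM only in the other nuclei and could not count as higher. Of 14 somite genes none passed the fold (median -0.41). None passed it of 4 neural crest genes, 4 surface ectoderm genes and 2 endoderm genes, and no gene of the endothelial, cardiac and germ cell lists passed the level filter. Not among the counted genes were 4 of 12 listed for neural crest, 6 of 11 for surface ectoderm and 4 of 8 for endoderm. Also missing were 5 of 8 endothelial and blood, 6 of 10 cardiac and 3 of 5 germ cell genes. These lists therefore do not tell whether such cell types were absent. Of 9 CDX, EVX and HOX cluster RNAs past the filter, HOXC-AS1, a non-coding RNA of the HOXC cluster, was higher, at 23.1 against 7.01 CPM. It reached 10 CPM only in members, so it could count as higher but not as lower. Over all genes past the filter, 1.11% were higher.

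Genes of pluripotency were not high as a group. L1TD1, an RNA-binding protein of pluripotent cells, was the only one of 7 genes past the filter that was 2-fold higher, at 85.0 against 24.7 CPM. ESRG, a non-coding RNA of hESC, was lower, at 4.13 against 12.4 CPM, and reached 10 CPM only in the other nuclei. The shares over all genes were 1.11% higher and 2.44% lower. Of the 16 listed genes, 6 were not among the counted genes. POU5F1 stood at 3.30 CPM in members and 2.40 in the others, and NANOG at 1.38 and 1.23. In bulk hESC, POU5F1 stood at 286 and 620 CPM of gene reads in the 2 libraries, which is another assay and was not compared by a test.

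Of the signalling lists, FGF showed 3 genes higher and 1 lower of 17 past the filter: FGF8, FGF17 and FGF13 were higher and FGF18 lower (19.0 against 42.9 CPM). Median log2 ratios were 0.13 for FGF, -0.02 for WNT, -0.42 for NOTCH and 0.20 for BMP and hedgehog. Over all genes past the filter the median was 0.04, with 1.11% higher and 2.44% lower. The receptor FGFR1 stood at 462 and 406 CPM. In the WNT list, WNT3A and RSPO3, an agonist of WNT signalling, were lower of 22 genes, none was higher, and the targets AXIN2 and SP5 stood at 35.2 against 37.9 CPM and at 59.4 in both groups. WNT3A reached 10 CPM only in the other nuclei, so it could not count as higher. In the NOTCH list, DLL1, DLL3, HES7 and LFNG were lower of 14 genes, all of which are also genes of the somite clock, and none was higher. In the BMP and hedgehog list, the BMP targets ID1 (38.0 against 18.3 CPM) and ID2 (26.4 against 12.6) were higher of 21 genes. None of 7 genes of the retinoic acid list passed the fold. No gene of the S phase list (39 genes, median log2 ratio 0.26) and none of the G2 and M phase list (46 genes, median 0.11) did.

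The 110 members in the SOX2-rich cluster and the 91 members elsewhere were unlike each other. The somite and paraxial mesoderm list summed to 0 to 1539 CPM per nucleus (median 307) in the former and to 139 to 6278 (median 2073) in the latter. The ranges overlapped and the quartiles (136 to 466 and 1283 to 2964) did not. The caudal list without TBXT summed to a median of 1774 CPM in the SOX2-rich cluster and of 587 elsewhere, with quartiles of 1276 to 2324 and 458 to 889. In summed levels, 541 of 10840 genes (4.99%) were 2-fold or more higher in the SOX2-rich cluster and 592 (5.46%) 2-fold or more lower. MEOX1 stood at 27.0 CPM in the cluster and 242 elsewhere, TCF15 at 16.7 and 78.0, PAX3 at 165 and 474, and all 14 somite genes past the filter were 2-fold or more lower in the cluster. RMST stood at 86.3 CPM (interval 73.5 to 101) in the cluster and 5.05 (interval 2.31 to 9.59) elsewhere, RFX4 at 130 and 11.2, FGF8 at 238 and 8.42, and HOXC8 at 132 and 16.8. SOX2 stood at 274 and 132 CPM. The neural list without SOX2, in which NES, CDH2, NCAM1 and CADM1 are also expressed by the other nuclei, summed to a median of 2637 CPM per nucleus (1165 to 4781) in the cluster, 2323 (860 to 5853) elsewhere and 2230 in all other nuclei, so its ranges overlapped. Median depth was 15748 UMIs in the cluster and 17866 elsewhere. Among the members, RMST, HOXC8 and RFX4 were thus higher in the SOX2-rich cluster, and the members elsewhere carried RNAs of paraxial mesoderm beside SOX2. None of the 3 was 2-fold apart between the members of the cluster and its nuclei with SOX2 and TBXT. The intervals were 73.5 to 101 in members against 47.0 to 62.8 for RMST, and 114 to 148 against 90.1 to 111 for RFX4. They do not cover the spread between nuclei. In those nuclei with TBXT, HOXC8 stood at 155 CPM (interval 143 to 169, against 116 to 150 in members) and the neural list had a median of 2663 CPM per nucleus. Of all UMIs of RMST, 169 lay in members and 367 in other nuclei, and of HOXC8 275 and 1572. The proposed name neural-like is therefore not used here, and the nuclei are called members, by their rule.

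**Figure D4:**
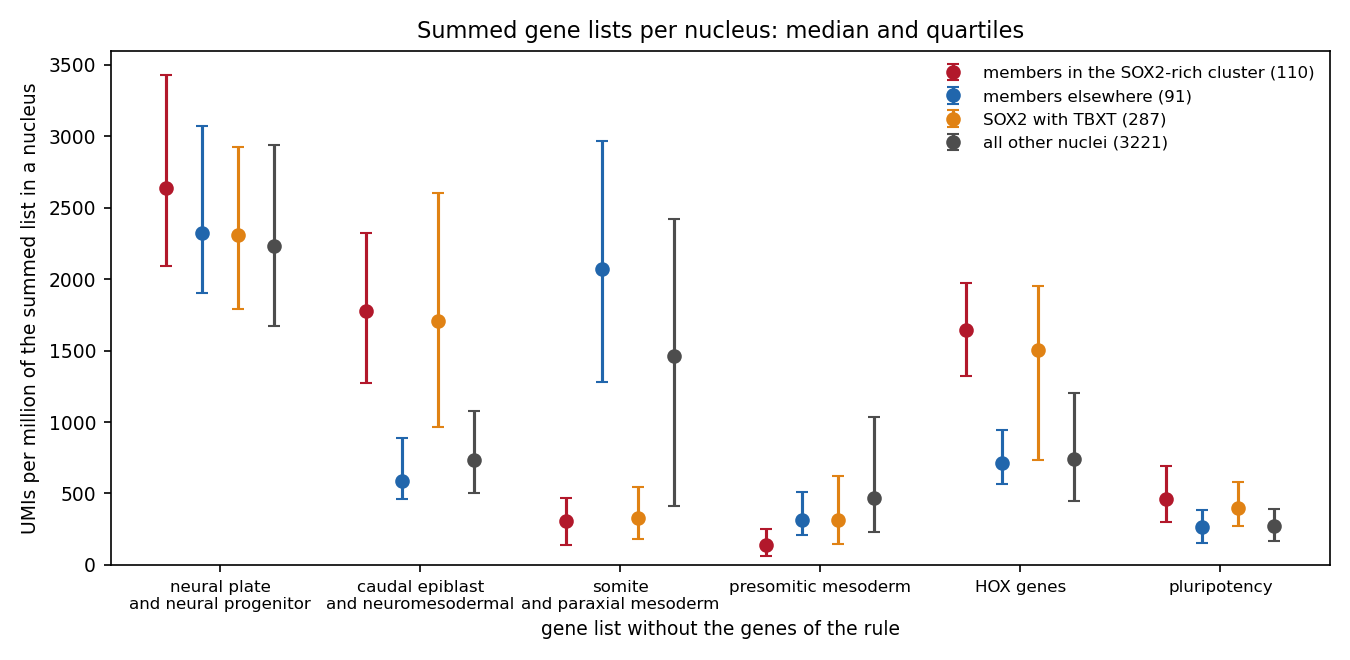
Summed level of 6 gene lists per nucleus (UMIs per 1000000), without the genes of the rule. Points are medians and bars run from the lower to the upper quartile over nuclei; the somite list has a median of 307 in members of the SOX2-rich cluster and 2073 in members elsewhere.

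Within the SOX2-rich cluster, fewer genes lay past the fold between nuclei with and without TBXT than in the comparisons above. Of 10470 genes, 62 (0.592%) were 2-fold or more higher in the 110 members than in the 155 nuclei with SOX2 and TBXT, and 39 (0.372%) 2-fold or more lower. The genes named in this paragraph and the next were chosen after their values were seen. BMP5, a BMP ligand, stood at 30.7 CPM in members against 8.31, PBX3, a cofactor of HOX proteins, at 48.6 against 16.3, RDH10, which makes retinal, at 36.7 against 14.6, and PTN, a secreted growth factor, at 577 against 249. BMP5, RDH10 and PTN were not particular to the cluster. Over all members BMP5 stood at 50.6 CPM and RDH10 at 150, and PTN stood at 825 in members elsewhere. PTN had a UMI in 58.5% of thinned members of the cluster and in 58.7% of its thinned nuclei with TBXT. Lower in the members of the cluster were RSPO3 (10.2 against 27.8 CPM) and SLC8A1 (67.4 against 155), beside TBXT. RFX4 stood at 130 against 100 CPM and RMST at 86.3 against 54.5. The members of the cluster had a median of 15748 UMIs and the nuclei with TBXT 21423, and the part of depth was not tested.

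Detection of RMST, a split made after its values were seen, divided the members of the SOX2-rich cluster further. Over all 201 members, 268 of 10684 genes (2.51%) were 2-fold or more higher in the 47 with RMST than in the 154 without it, and 316 (2.96%) were 2-fold or more lower. In the cluster, 42 members had a UMI of RMST and 68 had none. Between these, 471 of 10639 genes (4.43%) were 2-fold or more higher in those with RMST and 276 (2.59%) 2-fold or more lower. NR2F1, a nuclear receptor known from the developing brain and hindbrain, had 28 UMIs in the 42 nuclei with RMST and 0 in the 68 without it, where a count of 0 allows up to 3. Among members outside the cluster it had 18 UMIs. SOX21, a SOX factor of neural progenitors, had 14 UMIs against 1. PAX7, a factor of the dorsal neural tube, stood at 29.2 CPM (interval 18.7 to 43.4) against 7.76 (interval 3.35 to 15.3). FABP7 stood at 135 (interval 111 to 162) against 35.9 (interval 25.3 to 49.5), PTN at 1041 against 207 and NPAS3 at 258 against 58.2. PTN also stood at 825 CPM in members outside the cluster and at 623 in all other nuclei, so it was not particular to nuclei with RMST. Genes of the tail bud were lower with RMST: FGF17 stood at 255 CPM against 520, WNT5B at 97.2 against 255 and NKX1-2 at 31.6 against 58.2. Of 22 genes of the neural list past the filter without SOX2 and RMST, 7 were 2-fold or more higher with RMST and none lower (median log2 ratio 0.60, beside 0.03 over all genes). PAX7 and SOX21 passed the filter only through the nuclei with RMST. Of 12 caudal genes, none was higher and 3 lower (median -0.80). Somite genes moved with the same split: of 9 past the filter, 3 were 2-fold or more higher with RMST and none lower (median 0.93), and the list summed to 0 to 1370 CPM per nucleus (median 381) with RMST and to 0 to 1539 (median 298) without. Their part in the result was not tested. SOX2 stood at 289 (interval 254 to 328) and 262 (interval 232 to 295), intervals that overlap. The nuclei with RMST had a median of 18534 UMIs and those without it 15198, so detection of RMST also went with depth, the part of which was not tested.

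The HOX genes of paralogs 6 to 9 that passed the filter were higher in members of the SOX2-rich cluster than in all other nuclei. Of 26 HOX genes in the table, 19 passed the filter in the comparison of members with all other nuclei, and 3 of them (HOXC6, HOXC8 and HOXC9) were 2-fold or more higher. The share over all genes was 1.11%, and HOXC9 passed the filter only through the members. Of 7 genes with paralog numbers 6 to 9, all had a log2 ratio above 0 (median 0.99). Of 12 genes with numbers 1 to 5, 6 did (median -0.08). For the members of the SOX2-rich cluster alone, all 7 were 2-fold or more higher than in the 3221 other nuclei, with a median of 1.82 and a range of 1.06 to 2.18. Over all genes, 333 of 10820 were. Of paralogs 1 to 5, HOXA3 (1.22) and HOXC4 (1.21) were also 2-fold higher, and HOXA5 (-1.08) was lower. Of the paralogs 6 to 9 under the filter, HOXA6, HOXB6 and HOXD8 had ratios of 0.32, 0.22 and 0.16, and HOXA9 had 2.08. Against the nuclei with SOX2 and TBXT, the medians were -0.17 for paralogs 6 to 9 and -0.16 for paralogs 1 to 5. Within the SOX2-rich cluster, members with RMST were below those without it for all 7 genes of paralogs 6 to 9 (median -0.60), although only HOXC9 passed the fold, with 10 UMIs against 45. HOXB9 stood at 113 CPM (interval 91.2 to 138) with RMST and at 172 (interval 147 to 199) without.

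**Figure D5:**
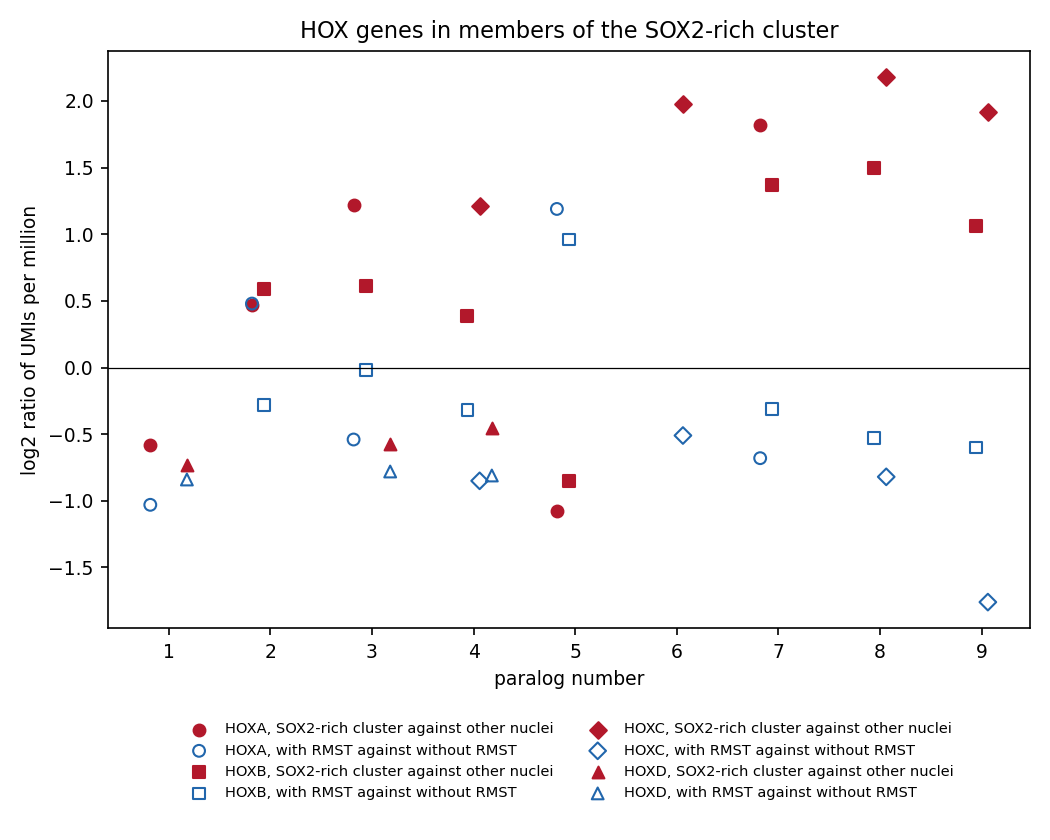
Log2 ratio of UMIs per 1000000 for the 19 HOX genes past the filter, by paralog number, with the shape giving the HOX cluster. Filled points compare members of the SOX2-rich cluster with the 3221 other nuclei and open points compare its members with and without RMST; for paralogs 6 to 9 all filled points lie above 0 and all open points below.

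At a finer clustering (Leiden resolution 1.0), the members were shared out further. A cluster of 287 nuclei held 69 members, one of 90 nuclei led by BTBD17, HOXC-AS1, NKX1-2 and SOX3 held 22, and one of 18 nuclei led by RMST, NPAS3, LINC01414, LRP2 and PAX5 held 13, which was 72.2% of it. Median depth was 18539, 8041 and 15876 UMIs in these 3 clusters.

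In the bulk libraries, SOX2 stood at 150 and 176 CPM in hESC, at 29.6, 25.3 and 15.1 in the 3 definitive endoderm libraries and at 180 and 149 in the 2 foregut controls. In bulk RNA, fewer cells of a type and less RNA per cell cannot be told apart. RMST stood at 4.84 and 6.52 CPM in hESC, at 0.356 to 1.58 in endoderm and at 0 in both foregut controls. HOXC8 was at 0 CPM in all of these libraries except 1 of endoderm, at 0.122. NKX1-2 stood at 23.7 and 24.1 CPM in hESC and at 1.16 to 1.72 in endoderm. So SOX2 was high in hESC and in foregut controls, where HOXC8 had no read.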

How the data were processed

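Values were of single-nucleus RNA from 1 library. Per the labels and the submitters' processing notes, the authors counted UMIs per gene and nucleus and called peaks with cellranger-arc 2.0.0 on GRCh38; the deposited counts are whole UMIs of 17493 genes in 3646 nuclei, and 17405 genes had a symbol. The deposited peaks are positions with no value. Bulk counts are reads per gene (hisat2 and featureCounts), deposited by the authors as raw counts, with 16376503 to 37152434 reads per library. The groups came from the sample titles.

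Nuclei with 1000 or more UMIs and at most 25% mitochondrial UMIs were kept (146 and 78 left out). Counts of each group were summed, scaled to 1000000 and compared as log2 with a pseudocount of 1 CPM, for genes at 10 CPM or more in either group; a ratio of 2-fold or more was counted. Since there is 1 library, no test was made, and replicate error is unknown. Intervals are exact Poisson or binomial 95% intervals for counting error. A count of 0 allows up to 3 counts. Barcodes of nuclei were not compared with those of the library of accessible chromatin. Named genes were the genes of the rule and the markers SOX2, HOXC8 and RMST; the 15 largest and 15 smallest ratios to all others (filter passed, a UMI in 10% of thinned nuclei where higher); the 10 largest ratios to nuclei with SOX2 and TBXT; and members of the fixed gene lists. Some genes that this rule names are not reported here. The members and lists were chosen with earlier results of these data known. Doublets were marked with Scrublet and kept. The ratio and calls were tested on simulated counts with known changes. Clusters used the 2000 most variable genes without those of the rule, 30 principal components, 15 neighbours and Leiden resolution 0.5. Alternatives were deeper nuclei, thinning, other limits on SOX2, pseudocounts, filters, depth classes and comparison groups. Clusters were made with the Leiden method of igraph 0.11.9 called through scanpy 1.11.5, neighbours were counted with scikit-learn 1.9.0, intervals with scipy 1.17.1, sums with numpy 2.4.6 and pandas 2.3.3 in Python 3.11.15, and plots with matplotlib 3.10.9.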

Additional observations from a re-analysis of the deposited data

How the results depend on the processing

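The number of members depended on the rule. With SOX2 at 1 or more UMIs it was 432, at 3 or more 106, and 118 with the rule on counts thinned to 5000 UMIs. With PAX3, MEOX1 and TCF15 also at 0 it was 29. Restricting the analysis to the SOX2-rich cluster, an alternative chosen after seeing the data, left 110 members. The mitochondrial limit, a limit of 5000 UMIs and leaving out doublets stayed within the interval of the count. No paired analysis was possible because the nuclei come from 1 library and the bulk levels come from no test.

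The count of genes 2-fold or more higher (118) was 206 on thinned counts, 49 with a pseudocount of 10 CPM, 187 without the low-value filter, 195 against nuclei with 0 UMIs of SOX2, 235 with SOX2 at 3 or more, 288 in nuclei under the members' median UMIs and 333 in members of the SOX2-rich cluster. The count of genes lower (260) was 127 with the larger pseudocount, 645 without the filter, 408 with SOX2 at 3 or more and 628 in members of the SOX2-rich cluster. Every other alternative, including the nuclei at or over the median depth, was within 1.5 times the main count. Of the list medians, 198 of 208 moved by less than 1.5-fold. Those that moved more were the caudal list, to -0.54, the presomitic list, to -0.46, and the somite list, to 1.09, against nuclei with SOX2 and TBXT, where the caudal (main 0.28) and somite (main -0.41) medians changed sign; the axial list, to -1.57 without the filter and -1.28 in shallow nuclei; the somite list, to -1.15 with SOX2 at 3 or more; and, in members of the SOX2-rich cluster, the presomitic list to -2.08, the somite list to -2.29, the HOX list to 0.96 and the NOTCH list to -1.11. The share of members with a UMI was 9.0% and 20.3% for RMST, 19.5% and 43.6% for HOXC8 at 3000 and 10000 UMIs, and 35.5% for RFX4 at 10000. The share of neighbours that are members was 19.3% to 21.0% in 3 alternatives. Depth per nucleus and the single library limit these values.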
